A study of Homo sapiens with 8 samples.

Results

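The 9 genes described here encode the RIG-I-like receptor pathway, from the RNA sensors DDX58 (RIG-I), IFIH1 (MDA5) and DHX58 (LGP2) through the ubiquitin ligases TRIM25 and RNF135 and the adaptor MAVS to TRAF3 and the kinases TBK1 and IKBKE. They were taken by symbol from the 60664 genes of the expression table, where RIG-I is written DDX58, and all 9 were found. The cells were THP-1, an established line from a human monocytic leukemia, and the drug was decitabine (DAC), a nucleoside that cells place in new DNA, where it traps the methyltransferases. Libraries came from 4 groups with 2 biological replicates each, namely parental THP-1 cells in DMSO, parental cells with 1 µM DAC, DAC-resistant THP-1 cells in DMSO and DAC-resistant cells with 1 µM DAC, each for 6 days. All groups are labelled wild type. The DAC-resistant cells are a population selected through repeated pulses of the drug and then kept in drug-free medium before the experiment, so both DAC-resistant groups share that earlier exposure.

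RIG-I, MDA5 and LGP2 are RNA helicases of the cytoplasm that bind double-stranded RNA of viruses or of the cell itself. RIG-I and MDA5 carry caspase recruitment domains, through which they make MAVS on the mitochondrial surface assemble into filaments, while LGP2 lacks these domains and tunes the other two. MAVS then recruits TRAF proteins and the kinases TBK1 and IKK-epsilon, which activate IRF3 and IRF7 for transcription of type I interferon. The 3 receptor genes are themselves interferon-stimulated genes, and the pathway is one through which DAC-treated cancer cells are known to mount an interferon response.

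The stretch before the gene start is shown for 3 members, those with an entry whose mean FPKM rose more than 2-fold with DAC in parental cells. Sequences are from RefSeq (GRCh38.p14), which matched 7 of the 9 members, all but DHX58 and RNF135, and each gives the 250 bases before the start, 5′ to 3′ on the gene's strand. The letters GAAANNGAA, the core of the interferon-stimulated response element (ISRE), were searched on both strands and stood in 6.88% of 35116 such windows. Among the 7 matched members they were found in the IFIH1 window alone, with 4 matches, at 164 to 156, 158 to 150, 152 to 144 and 21 to 13 bases before the start. The first 3 are on the opposite strand, where each overlaps the next. The gamma-activated letters TTCNNNGAA, present in 6.57% of windows, were in none of the 7. The shorter form GAAANGAA, added after the sequences had been read and present in 6.42% of windows, was in the DDX58 window alone, at 203 to 196 bases before the start. Capitals mark the matches.
DDX58, chr9:32526197-32526446, minus strand: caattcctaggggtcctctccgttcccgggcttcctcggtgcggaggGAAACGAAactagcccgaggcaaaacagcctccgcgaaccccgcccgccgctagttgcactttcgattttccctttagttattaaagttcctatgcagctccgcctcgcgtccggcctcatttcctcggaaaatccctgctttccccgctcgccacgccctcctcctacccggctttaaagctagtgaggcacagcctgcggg
IFIH1, chr2:162318685-162318934, minus strand: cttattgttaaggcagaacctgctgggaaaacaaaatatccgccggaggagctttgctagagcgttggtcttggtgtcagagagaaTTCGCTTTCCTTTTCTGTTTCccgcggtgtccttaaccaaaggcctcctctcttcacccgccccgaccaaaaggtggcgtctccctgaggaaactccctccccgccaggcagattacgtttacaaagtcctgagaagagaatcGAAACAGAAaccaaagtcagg
IKBKE, chr1:206470226-206470475, plus strand: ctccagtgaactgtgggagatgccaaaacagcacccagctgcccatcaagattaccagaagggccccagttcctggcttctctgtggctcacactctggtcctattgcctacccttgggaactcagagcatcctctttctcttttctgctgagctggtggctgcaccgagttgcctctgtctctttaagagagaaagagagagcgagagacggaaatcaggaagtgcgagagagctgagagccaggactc
CG dinucleotides, the sites of DNA methylation, numbered 22 in the DDX58 window, 12 in that of IFIH1 and 4 in that of IKBKE, against a median of 11 over all windows with quartiles of 3 and 23. The other 4 windows held more, with 27 for TBK1, 28 for MAVS, 30 for TRIM25 and 51 for TRAF3. A match of letters is a description of the window and no measured binding site, and methylation was not measured in these libraries.

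Reads recovered from the deposited values, as described below, summed over genes to between 28717841 and 33416782 in each library. These sums are approximate, since the totals that scaled the values came out lower, at 27480502 to 31916835. The deposited values are FPKM, reads scaled by gene length and by library total. All 9 monocytic or myeloid markers looked up (among them SPI1 and CD33) passed the filter on low values given below, and their summed level was 260 to 265 FPKM in parental DMSO libraries, 380 to 389 with DAC, 193 to 208 in DAC-resistant DMSO libraries and 204 to 211 with DAC. SPI1 and CEBPA carry most of that sum. By an adjusted p under 0.05 from limma, 8 of the 9 were higher and 1, CD33, was lower with DAC in parental cells, none passed with DAC in DAC-resistant cells, and 7 were lower in DAC-resistant than in parental cells in DMSO. Over all genes 33.6% were higher and 24.1% lower in the first of these comparisons, 5.88% and 5.35% in the second, and 26.2% lower in the third. With DAC in parental cells CD14 rose from 1.52 ± 0.090 to 19.9 ± 1.32 FPKM and LYZ from 12.0 ± 0.87 to 47.8 ± 1.60 (mean ± SD, n = 2), and CD33 fell from 9.83 ± 0.13 to 7.86 ± 0.35. None of the 3 T cell, 2 erythroid or 2 epithelial markers passed it. Of 7 B and plasma cell markers 3 passed, and the 7 summed to 5.96 to 6.58 FPKM in parental DMSO libraries, 9.93 to 10.8 with DAC, 7.54 to 7.83 in DAC-resistant DMSO libraries and 8.19 to 8.27 with DAC. SDC1 and JCHAIN were higher with DAC in parental cells (log2 fold changes 1.06 and 0.98) and in DAC-resistant cells in DMSO (1.01 and 0.93). The part of these shifts in the results on the pathway was not tested, and in bulk RNA fewer cells that express a gene and less RNA per cell cannot be told apart.

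By the fold of mean FPKM, the receptors were the members that DAC moved most in parental cells, while on log2(FPKM + 1) IKBKE and TRIM25 changed more than DDX58. IFIH1 (ENSG00000115267, chr2:162267074-162318684, minus strand), which encodes MDA5, the sensor of long double-stranded RNA, stood at 8.88 and 9.11 FPKM in parental cells in DMSO and at 42.1 and 40.4 with DAC. In DAC-resistant cells it stood at 13.5 in both DMSO libraries and at 11.9 and 11.6 with DAC. Both DAC-treated parental libraries were far above the other 6, and the DAC-resistant libraries lay between them and the parental DMSO libraries. The mean was 4.58-fold higher with DAC in parental cells, which is a log2 fold change of 2.08 on log2(FPKM + 1) with a standard error of 0.035 (adjusted p = 1.3e-07 from limma). In DAC-resistant cells DAC left IFIH1 lower, at 0.872 of its DMSO level (log2 fold change -0.18, adjusted p = 0.024), a call lost in 6 of 19 alternatives, among them without any 1 of the 4 DAC-resistant libraries (-0.20 to -0.17). The 2 DAC effects differed by -2.26 (95% interval -2.38 to -2.14, adjusted p = 7.6e-07).

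DHX58 (ENSG00000108771, chr17:42101404-42112714, minus strand), which encodes LGP2, stood at 1.08 and 1.12 FPKM in parental DMSO libraries and at 8.19 and 7.38 with DAC. In DAC-resistant cells it stood at 2.29 and 2.16 in DMSO and at 1.62 and 1.52 with DAC. The 4 groups did not overlap and had the same order as those of IFIH1. The DAC-treated parental mean was 7.07-fold that in DMSO, a log2 fold change of 2.06 with a standard error of 0.073 (adjusted p = 2.2e-06 from limma). In DAC-resistant cells the change with DAC was -0.33 (adjusted p = 0.038), and this call was lost in 14 of 18 alternatives, among them without any 1 of the 8 libraries (-0.35 to -0.30). The DAC effects differed by -2.39 (95% interval -2.64 to -2.14, adjusted p = 9e-06).

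In DMSO, without the added drug, DAC-resistant cells held 1.50 times the IFIH1 level of parental cells (log2 fold change 0.54, adjusted p = 3.3e-05 from limma). For DHX58 it was 2.02 times the parental level (0.62, adjusted p = 0.00046). These levels were 32.7% and 28.5% of those in DAC-treated parental cells. With DAC in both lines, DAC-resistant cells had 0.285 of the parental IFIH1 level (-1.73, adjusted p = 1.7e-07) and 0.202 of the parental DHX58 level (-1.77, adjusted p = 2.5e-06). The ratio of IFIH1 to DHX58 in FPKM was 8.22 and 8.12 in parental DMSO libraries, 5.14 and 5.47 with DAC, 5.89 and 6.27 in DAC-resistant DMSO libraries and 7.34 and 7.65 with DAC. It was lowest in the DAC-treated parental libraries, where both genes were highest.

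DDX58 (ENSG00000107201, chr9:32455302-32526208, minus strand), which encodes RIG-I, the sensor of short double-stranded RNA and of 5′-triphosphate ends, was counted at 59 and 28 reads in parental DMSO libraries, 228 and 225 with DAC, 65 and 67 in DAC-resistant DMSO libraries and 65 and 48 with DAC. In FPKM these were 0.180 and 0.0893, 0.802 and 0.791, 0.199 and 0.215, and 0.197 and 0.151. The DAC-treated parental libraries were above all others, and the 6 others lay between 0.0893 and 0.215, with both DAC-resistant DMSO libraries above both parental DMSO ones. DDX58 was under the filter of 1 FPKM in 2 libraries that the other 8 members passed, so its values come from the fit without the filter, in which a change at such a level is strongly understated. The mean FPKM was 5.92-fold higher with DAC in parental cells (8.92-fold without parental DMSO replicate 1 and 4.43-fold without replicate 2), against a log2 fold change of 0.66 on log2(FPKM + 1) (standard error 0.076, adjusted p = 0.0022). With limma's voom on the reads, added after DDX58 was seen to be under the filter, the change was 2.62 (adjusted p = 6.1e-05). In DAC-resistant cells the change with DAC was -0.04 (95% interval -0.23 to 0.15, adjusted p = 1) and by voom -0.26 (adjusted p = 0.8). DAC-resistant and parental cells in DMSO differed by 0.09 (95% interval -0.10 to 0.28, adjusted p = 0.54; 0.15 without parental DMSO replicate 1 and 0.033 without replicate 2), and by voom by 0.68 (adjusted p = 0.17). With DAC in both lines DAC-resistant cells were lower (log2 fold change -0.61, adjusted p = 0.0023, and by voom -2.20, adjusted p = 6.6e-05), at 0.219 of the parental FPKM. The DAC effects differed by -0.70 (adjusted p = 0.0089) and by voom by -2.88 (adjusted p = 0.00072).

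Most of the canonical DDX58 transcript also belongs to a readthrough gene in the annotation. The gene ENSG00000288684 (chr9:32455323-32552603, same strand) shares 4471 of the 4628 bases of the canonical DDX58 transcript, or 96.6%, and 43.2% of the 10345 exon bases by which the deposited value is divided. That entry itself was counted at 0 reads in 6 libraries and at 1 read in 2. Over the whole table, of 1325 genes with every exon base shared on the same strand, 87.3% were at 0 in all libraries, against 40.0% of 42068 genes with no shared base. For 774 genes shared on the opposite strand alone it was 97.2%. The classes were not matched for the type of gene, 169 of the 1325 were above 0, and how the counting treated reads on 2 genes was not tested. Of 19942 protein-coding genes, 757 had at least 90% of canonical bases shared, and 8.59% of these passed the filter, against 59.7% of the rest. Among the other members the share on the same strand was 1.5% for TRIM25, 2.4% for TBK1 and 0 for the remaining 6. On the opposite strand 9.4% of canonical TRIM25 bases lay under the RNA gene ENSG00000262112, 4.8% of those of IKBKE under IKBKE-AS1 and 2.3% of those of TBK1 under ENSG00000277895. Whether reads of DDX58 went uncounted, and how many, cannot be told from the table, and its rise with DAC was read from 28 to 228 reads a library.

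**Figure D1:**
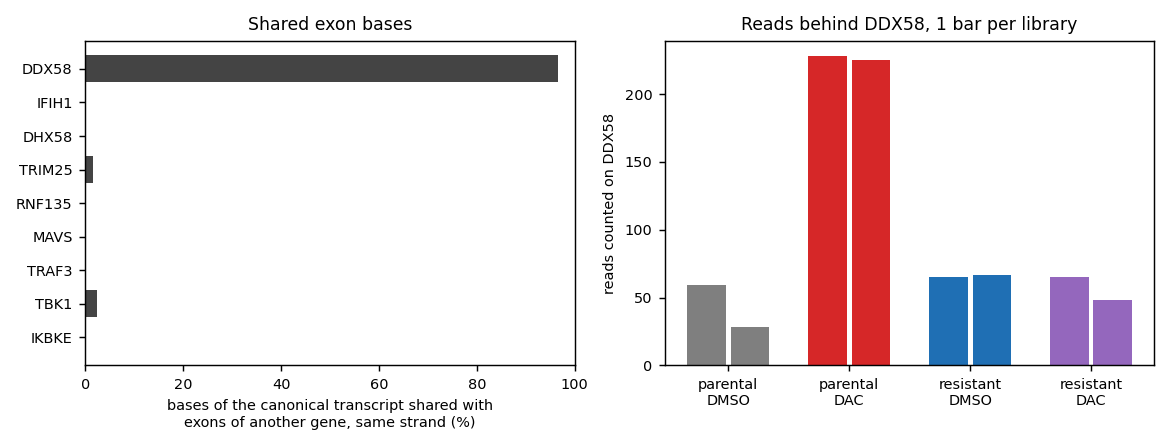
Left, the share of canonical transcript bases that each member shares with exons of another gene on the same strand, in percent, with DDX58 at 96.6% and all others at 2.4% or less. Right, the reads counted on DDX58, 1 bar for each of the 8 libraries, with 228 and 225 in the DAC-treated parental libraries and 28 to 67 in the others.

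The 2 ubiquitin ligases went separate ways. TRIM25 (ENSG00000121060, chr17:56836387-56914080, minus strand), a ligase reported to attach ubiquitin chains to RIG-I, stood at 13.4 and 13.1 FPKM in parental DMSO libraries, 24.1 and 24.5 with DAC, 18.5 and 19.0 in DAC-resistant DMSO libraries and 17.99 and 17.6 with DAC. Its order over the groups was that of IFIH1 and DHX58, with a narrower range and no overlap between groups. It rose 1.84-fold with DAC in parental cells (log2 fold change 0.83, standard error 0.033, adjusted p = 3.4e-06 from limma). In DAC-resistant cells the change with DAC was -0.07 (95% interval -0.15 to 0.0084, adjusted p = 0.23). DAC-resistant cells in DMSO were higher than parental ones by 0.47 (adjusted p = 4.1e-05), at 77.03% of the level of DAC-treated parental cells. With DAC in both lines they were lower (log2 fold change -0.43, adjusted p = 3.9e-05), and the DAC effects differed by -0.90 (adjusted p = 1.9e-05).

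RNF135 (ENSG00000181481, chr17:30970984-30999911, plus strand), also called RIPLET, the ligase that modifies RIG-I bound to RNA, stood at 11.1 and 13.2 FPKM in parental DMSO libraries and at 8.29 and 11.2 with DAC. In DAC-resistant cells it stood at 6.32 and 5.38 in DMSO and at 7.88 and 7.76 with DAC. The DAC-resistant libraries were below all parental ones, and the 2 parental groups overlapped. In DMSO DAC-resistant cells had 0.482 of the parental level (log2 fold change -0.94, standard error 0.143, adjusted p = 0.0015 from limma), which passed the threshold of 1 in size without parental DMSO replicate 1 or without DAC-resistant DMSO replicate 1 (down to -1.06 over the alternatives). The change with DAC was -0.30 in parental cells (95% interval -0.64 to 0.045, adjusted p = 0.12) and 0.37 in DAC-resistant cells (95% interval 0.026 to 0.71, adjusted p = 0.16). Without parental DAC replicate 2, the change in parental cells was -0.49 and passed an adjusted p under 0.05, and without parental DAC replicate 1 it was -0.10 (adjusted p = 0.54). It passed in 4 of 19 alternatives in all. The difference between the effects was 0.67 (adjusted p = 0.033), and this call was lost in 7 of 18 alternatives, among them without either DAC-resistant DAC library (0.66 and 0.68), parental DMSO replicate 2 (0.55), parental DAC replicate 1 (0.47) or DAC-resistant DMSO replicate 2 (0.57). With DAC in both lines the lines differed by -0.27 (adjusted p = 0.14), by -0.47 without parental DAC replicate 1, when it passed, and by -0.075 without parental DAC replicate 2 (adjusted p = 0.64). The ratio of RNF135 to TRIM25 in FPKM was 0.827 and 1.01 in parental DMSO libraries and between 0.283 and 0.456 in the other 6.

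MAVS fell with DAC in parental cells, where IFIH1 and DHX58 rose, while in DAC-resistant cells in DMSO it was higher than in parental cells, as they were. The adaptor MAVS (ENSG00000088888, chr20:3846799-3876123, plus strand), on which RIG-I and MDA5 converge, stood at 10.6 and 10.5 FPKM in parental DMSO libraries and at 7.20 and 7.57 with DAC. In DAC-resistant cells it stood at 17.0 and 15.9 in DMSO and at 15.5 and 15.1 with DAC. The DAC-treated parental libraries, highest for the receptors, were lowest for MAVS, and all 4 DAC-resistant libraries were above all 4 parental ones. In parental cells it fell with DAC to 0.700 of its level (log2 fold change -0.46, standard error 0.045, adjusted p = 2e-04 from limma). In DAC-resistant cells the change was -0.10 (95% interval -0.20 to 0.012, adjusted p = 0.23). DAC-resistant cells had 1.56 times the parental level in DMSO (0.60, adjusted p = 6.1e-05) and 2.07 times with DAC (0.96, adjusted p = 4.4e-06), and the DAC effects differed by 0.37 (adjusted p = 0.0036). The ratio of IFIH1 to MAVS in FPKM was 5.84 and 5.33 in DAC-treated parental libraries and between 0.766 and 0.864 in the other 6.

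TRAF3 (ENSG00000131323, chr14:102777449-102911500, plus strand), the ligase that links MAVS to the kinases, varied little. It stood at 13.8 and 14.7 FPKM in parental DMSO libraries, 13.1 and 13.4 with DAC, 13.0 and 13.9 in DAC-resistant DMSO libraries and 13.8 and 15.1 with DAC. The groups overlapped for the most part. Its log2 fold changes in the 4 comparisons of 2 groups lay between -0.09 and 0.11 with adjusted p from 0.12 to 0.34, and the widest 95% intervals reached -0.23 and 0.25. Over the alternatives the change with DAC in parental cells reached -0.20 and passed an adjusted p under 0.05 in 2 of 19. The difference between the lines in DMSO reached -0.17 and passed in 2 of 19. With DAC in both lines the difference reached 0.24 and passed in 3 of 19. The difference between the DAC effects was 0.19 (adjusted p = 0.092), which passed an adjusted p under 0.05 in 6 of 18 alternatives, the one without DAC-resistant DAC replicate 1 (0.25) among them.

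Of the 2 kinases the inducible one moved more. TBK1 (ENSG00000183735, chr12:64452090-64502114, plus strand), the kinase that phosphorylates IRF3, stood at 5.25 and 5.39 FPKM in parental DMSO libraries, 7.97 and 7.95 with DAC, 4.88 and 4.74 in DAC-resistant DMSO libraries and 4.66 and 4.80 with DAC. The DAC-treated parental libraries were above the other 6. TBK1 rose 1.50-fold with DAC in parental cells (log2 fold change 0.50, standard error 0.045, adjusted p = 0.00013 from limma). In DAC-resistant cells the change was -0.02 (95% interval -0.13 to 0.088, adjusted p = 0.83), and 0.0045 with values rescaled to TPM. DAC-resistant cells differed from parental ones by -0.12 in DMSO (adjusted p = 0.057) and by -0.65 with DAC (adjusted p = 2.7e-05). The difference in DMSO passed an adjusted p under 0.05 in 5 of 19 alternatives and ranged over them from -0.20 (adjusted p = 0.0078, upper-quartile scaling) to -0.07 (adjusted p = 0.29, rescaled to TPM). The DAC effects differed by -0.52 (adjusted p = 0.00076).

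IKBKE (ENSG00000263528, chr1:206470476-206496889, plus strand) encodes IKK-epsilon, the relative of TBK1 that inflammatory signals induce. It stood at 9.97 and 8.83 FPKM in parental DMSO libraries, 21.4 and 23.3 with DAC, 7.80 and 7.70 in DAC-resistant DMSO libraries and 8.16 and 8.04 with DAC. The DAC-treated parental libraries were again apart from the other 6, and all DAC-resistant libraries were below the parental DMSO ones. IKBKE rose 2.38-fold with DAC in parental cells (log2 fold change 1.17, standard error 0.064, adjusted p = 1.5e-05 from limma). In DAC-resistant cells the change was 0.06 (95% interval -0.10 to 0.21, adjusted p = 0.64). DAC-resistant cells were lower than parental ones in DMSO (log2 fold change -0.25, adjusted p = 0.015, a call lost without parental DMSO replicate 1, -0.17, or without either DAC-resistant DMSO library, -0.26 and -0.24) and with DAC (-1.36, adjusted p = 4.5e-06). The DAC effects differed by -1.11 (adjusted p = 0.00014). The ratio of IKBKE to TBK1 in FPKM was 2.68 and 2.93 in DAC-treated parental libraries and between 1.60 and 1.90 in the other 6.

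**Figure D2:**
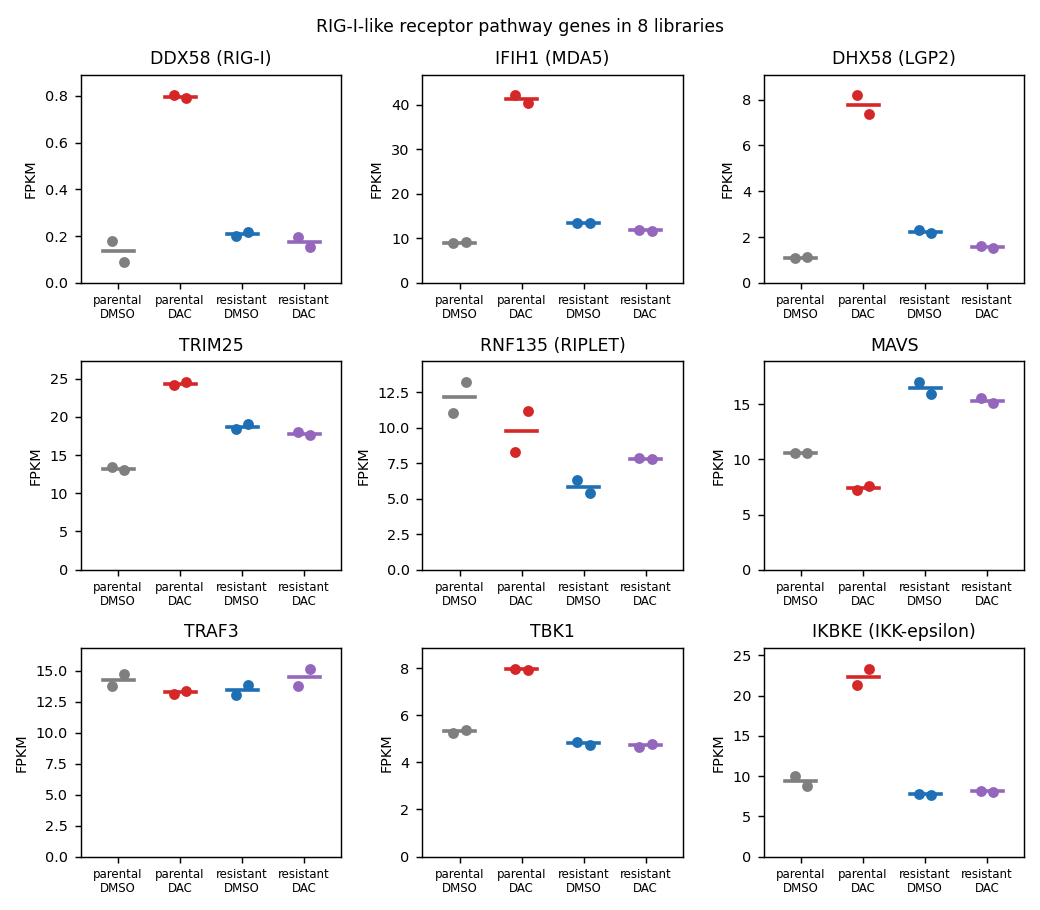
FPKM of the 9 members in the 8 libraries, with 1 panel a gene, a linear axis from 0, 1 point a library and a short line at the mean of each group. IFIH1, DHX58, TRIM25, TBK1, IKBKE and DDX58 are highest in DAC-treated parental cells, MAVS is lowest there (7.20 and 7.57), and TRAF3 lies between 13.0 and 15.1 throughout.

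Counted by comparison, DAC in parental cells raised 3 of the 8 members tested, IFIH1, DHX58 and IKBKE, where a call needed both an unadjusted p no higher than 0.01 and a log2 fold change of 1 or more in size. Over all 14899 genes tested 6.66% were raised and 2.64% were lowered, and no member was lowered. By an adjusted p under 0.05 alone, 5 members were higher (these 3, TRIM25 and TBK1) where 33.6% of all genes were, and 1, MAVS, was lower where 24.1% were. The median log2 fold change was 0.67 over the 8 members and 0.06 over all genes.

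DAC in DAC-resistant cells raised and lowered none of the 8, where 0.114% of all genes were raised and 0.121% were lowered. At an adjusted p under 0.05 no member was higher, where 5.88% of all genes were, and IFIH1 and DHX58 were lower, where 5.35% were. At an unadjusted p under 0.05 from limma 1 member, RNF135, was higher, where 14.4% of all genes were. The median was -0.05 over the members and 0.01 over all genes. The interaction of line and drug, that is the difference between the 2 DAC effects, was lower than -1 for 3 members, IFIH1, DHX58 and IKBKE, where 7.16% of all genes were lowered, and higher than 1 for none, where 3.46% were raised. By adjusted p alone it was negative for 5 (28.4% of all genes) and positive for RNF135 and MAVS (20.9%), with a median of -0.71 over the members and -0.05 over all genes.

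DAC-resistant against parental cells in DMSO, where the lines differ without the drug added, had no member raised (4.45% of all genes) or lowered (4.28%). By adjusted p alone 4 members were higher, IFIH1, DHX58, TRIM25 and MAVS, where 31.3% of all genes were, and 2 were lower, RNF135 and IKBKE, where 26.2% were. With 8 members, counts of 4 and 2 stand near those shares, and nothing particular to the members is read from them. The medians were 0.20 over the members and 0.02 over all genes. With DAC in both lines 3 members were lowered in DAC-resistant cells, IFIH1, DHX58 and IKBKE (9.17% of all genes), and none was raised (5.29%). By adjusted p alone 5 were lower (35.1%) and 1, MAVS, was higher (32%), with medians of -0.54 over the members and -0.03 over all genes. The comparisons share libraries with one another, so these counts are not separate pieces of evidence. For 1 gene taken alone, an exact permutation test (two-sided) of 2 libraries against 2 has a smallest p of 0.333. The p-values above come instead from limma, which takes the spread from all 4 groups and moderates it over genes. Without that moderation the members raised and lowered in each comparison were the same ones, while by adjusted p DHX58 with DAC in DAC-resistant cells (0.06) and RNF135 in the difference (0.1) were lost and TBK1 between the lines in DMSO was gained (0.014). Nothing in the labels beyond the words for biological replicate says how the 2 cultures of a group were kept apart.

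**Figure D3:**
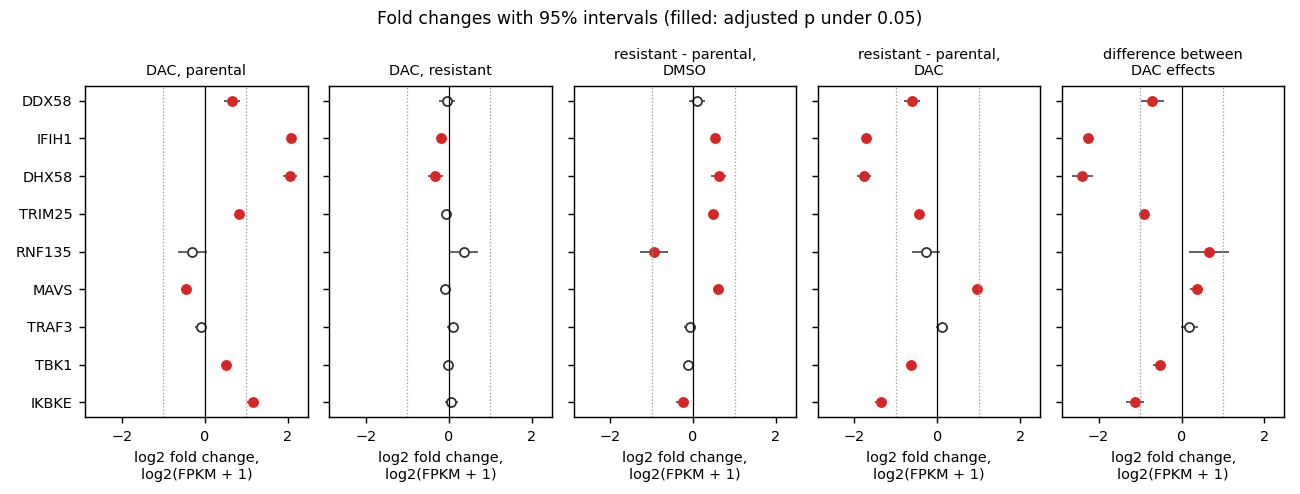
Log2 fold changes of the 9 members on log2(FPKM + 1) in the 5 comparisons, with points for estimates and lines for 95% intervals, filled where the adjusted p from limma is under 0.05 and with dotted lines at -1 and 1. DDX58 is from the fit without the filter on low values. The points spread from -0.46 to 2.08 with DAC in parental cells and stay between -0.33 and 0.37 in DAC-resistant cells.

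Levels of different members were not put in order, since the deposited values are divided by all exon bases of a gene, which exceed those of the canonical transcript unevenly. For TBK1 they were 14716 against 3022 bases, for TRIM25 12417 against 5745, for MAVS 11771 against 11731 and for RNF135 2246 against 2054. The ratios between members given above carry the same limit in their size, and what they compare is libraries, over which these lengths are constant. Within a member the order of the groups does not depend on the length. DAC-treated parental cells had the highest mean for DDX58, IFIH1, DHX58, TRIM25, TBK1 and IKBKE and the lowest for MAVS and TRAF3, and for RNF135 it was the second highest, though TRAF3 and RNF135 overlapped with a neighbouring group.

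The genes whose profile over the 8 libraries lay closest to each receptor were sought among 12290 named genes that passed the filter, by the root mean square distance between centred log2(FPKM + 1) values. For IFIH1 they were HR (distance 0.045, Pearson's r 0.998), LAP3 (0.069, 0.997) and SERPINI1 (0.089, 0.997). For DHX58 they were LAP3 (0.071, 0.997), HR (0.072, 0.996) and PLSCR1 (0.1003, 0.993). HR stood at 0.0356 and 0.00828 FPKM in parental DMSO libraries and at 3.32 and 3.29 with DAC. In DAC-resistant cells it stood at 0.529 and 0.384 in DMSO and at 0.291 in both libraries with DAC. HR thus passed the filter only through the DAC-treated parental libraries, and its change is understated on this scale. LAP3, a leucine aminopeptidase, stood at 8.49 and 8.38 FPKM in parental DMSO libraries, 40.7 and 37.4 with DAC, 12.1 in both DAC-resistant DMSO libraries and 10.5 and 9.37 with DAC. PLSCR1, a phospholipid scramblase that interferon induces, went from 7.66 and 7.96 to 34.8 and 34.9 with DAC in parental cells. For DDX58 the nearest were KIAA1614 (0.033, 0.993), OSTM1 (0.039, 0.991) and DNAJC5 (0.041, 0.989), whose changes are small on this scale, as that of DDX58 is at its level under 1 FPKM. KIAA1614 too passed the filter only through the DAC-treated parental libraries, at 1.28 and 1.34 FPKM. With DAC in parental cells OSTM1 went from 8.88 and 8.06 to 13.9 and 14.2 FPKM and DNAJC5 from 26.2 and 26.0 to 41.9 and 42.1. Their match to DDX58, whose mean FPKM rose 5.92-fold, holds on log2(FPKM + 1) and not in fold. With 4 groups in 8 libraries, such correlations follow mainly from the 2 DAC-treated parental libraries and carry no test.

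The other genes of the pathway were looked up as lists. Of 20 genes that work with or below MAVS, 19 were tested, and with DAC in parental cells 12 were higher and 2 lower at an adjusted p under 0.05, with a median of 0.26, where 33.6% of all genes were higher and 24.1% lower, with a median of 0.06. IRF7, the transcription factor of the late interferon response, was the 1 gene raised of the 19, a share below the 6.66% of all genes, and went from 3.74 and 3.43 FPKM to 50.4 and 52.6 (log2 fold change 3.52, adjusted p = 1.4e-07 from limma). In DAC-resistant cells it stood at 8.33 and 8.51 in DMSO and at 5.36 and 4.76 after DAC, so that it fell there (log2 fold change -0.64, adjusted p = 0.0026), and the DAC effects differed by -4.15 (adjusted p = 7.3e-07). TRAF2, another MAVS-binding ligase, was lowered in the difference alone (-1.01, adjusted p = 0.00029). NFKB1, the p105 and p50 subunit of NF-κB, was lowered in DAC-resistant against parental cells. In DMSO it stood at 10.0 and 10.4 FPKM in parental and at 3.36 and 3.56 in DAC-resistant cells (-1.33, adjusted p = 1.6e-05). With DAC in both lines the difference was -1.66 (adjusted p = 3.5e-06). In DMSO IRF7 was raised in DAC-resistant cells (1.04, adjusted p = 2.1e-05), and the list had 9 genes higher and 3 lower, where 31.3% and 26.2% of all genes were. With DAC in DAC-resistant cells 1 was higher and 1 lower, where 5.88% and 5.35% of all genes were, with a median of 0.04. IRF3, which TBK1 phosphorylates, rose in parental cells from 14.2 and 13.0 FPKM to 18.7 and 18.4 (0.42, adjusted p = 0.00031). TRAF5 was under the filter.

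Of 27 regulators of the receptors and of MAVS, 26 were tested (not TRIM31, at 0 to 2 reads). With DAC in parental cells 13 were higher and 4 lower, with a median of 0.15, and 2 were raised, LGALS9 (1.25, adjusted p = 6.8e-06 from limma) and IFI35 (2.09, adjusted p = 1e-05). Beside these stand 33.6% of all genes higher, 24.1% lower and 6.66% raised, so that 2 raised of 26 is near the background. IFI35, an interferon-induced protein reported to act on RIG-I, went from 11.4 and 10.1 to 47.3 and 50.9 FPKM in parental cells and from 13.5 and 13.7 to 13.1 and 10.4 in DAC-resistant cells. With DAC in DAC-resistant cells 2 were higher and 2 lower, where 5.88% and 5.35% of all genes were. RNF5, a ligase that marks MAVS for degradation, was raised in DAC-resistant cells in DMSO, from 41.7 and 48.8 to 96.2 and 91.2 FPKM (1.04, adjusted p = 3.3e-05), where 11 of the list were higher and 6 lower, near the 31.3% and 26.2% of all genes. With DAC in both lines, 3 of the 26 were lowered in DAC-resistant against parental cells, where 9.17% of all genes were. They were NLRC5 (-1.09, adjusted p = 7.4e-06), LGALS9 (-1.53, adjusted p = 1.7e-06) and IFI35 (-1.99, adjusted p = 7.8e-06). RNF5 and LGALS9 have near-identical copies in the genome that may share their reads, so their values are uncertain to that extent.

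Of 11 other RNA helicases and RNA sensors 10 were tested, and with DAC in parental cells 7 were higher and none was lower, with a median of 0.34, where 33.6% of all genes were higher and 24.1% lower, with a median of 0.06. DDX60 rose from 1.19 and 1.17 to 7.56 and 8.47 FPKM (2.05, adjusted p = 1.2e-06 from limma) and ZNFX1 from 6.80 and 6.88 to 16.3 and 16.7 (1.16, adjusted p = 1.8e-06). With DAC in DAC-resistant cells none was higher and 1, DDX60L, was lower (-0.22, adjusted p = 0.042), where 5.88% and 5.35% of all genes were. DDX60 stood at 5.86 and 5.71 FPKM in DAC-resistant cells in DMSO and was raised there against parental cells (1.64, adjusted p = 3.9e-06), where 9 of the 10 were higher, beside 31.3% of all genes. TLR3, the endosomal sensor of double-stranded RNA, was under the filter, with 9 and 23 reads in parental DMSO libraries, 60 and 59 with DAC, 0 in both DAC-resistant DMSO libraries and 0 and 1 with DAC.

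Of 10 outputs of the pathway 5 were tested. All 5 were higher both in DAC-treated parental cells and in DAC-resistant cells in DMSO at an adjusted p under 0.05, and all 5 were raised in the latter, where 33.6% and 31.3% of all genes were higher and 4.45% were raised. IFNB1 passed the filter only through the DAC-resistant libraries, in which it is high, so its place among the 5 is in part set by the filter. IFNB1, the interferon gene that IRF3 and NF-κB switch on, was counted at 0 and 1 read in parental DMSO libraries, 7 and 12 with DAC, 46 and 51 in DAC-resistant DMSO libraries and 51 and 60 with DAC, so that its order over the groups was not that of the receptors. CXCL10 stood at 1.10 and 0.814 FPKM in parental DMSO libraries, 35.6 and 35.2 with DAC, 36.1 and 30.8 in DAC-resistant DMSO libraries and 25.8 and 26.6 with DAC. TNF stood at 8.18 and 7.94, 36.1 and 38.2, 35.3 and 35.0, and 51.1 and 49.9 in the same order, and it was the 1 output higher with DAC in DAC-resistant cells (0.51, adjusted p = 0.0012 from limma), where 5.88% of all genes were. CXCL8 was raised by DAC in parental cells (4.23, adjusted p = 1.6e-06), and CCL5 was raised in DAC-resistant cells in DMSO (1.22, adjusted p = 1.3e-06). Of the 5 that were not tested, IFNA1 and IFNL3 had 0 reads in all libraries, IFNL2 had 0 to 2, IFNL1 0 to 8 and IL6 0 to 17. IFNA1, IFNL2 and IFNL3 belong to families of near-identical genes, whose reads the counting may lose.

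**Figure D4:**
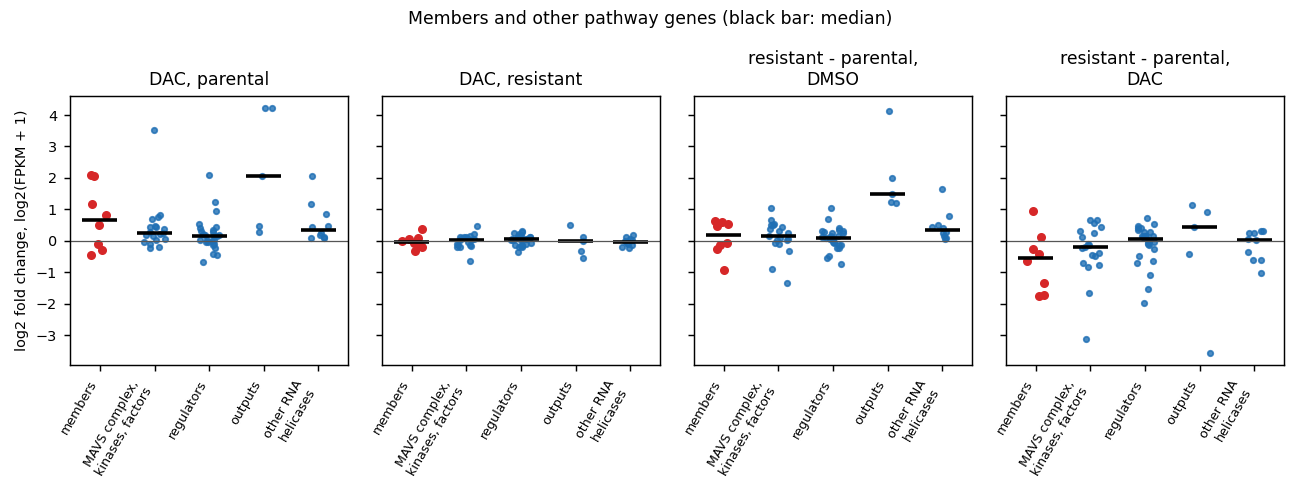
Log2 fold changes on log2(FPKM + 1) of the 8 tested members (red) and of the tested genes in 4 lists of the pathway (blue) in the 4 comparisons of 2 groups, 1 point a gene, spread sideways for sight, with a black bar at each median. With DAC the 8 members have a median of 0.67 in parental cells and of -0.05 in DAC-resistant cells.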

How the data were processed

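Libraries were prepared from total RNA with a kit for mRNA, and an Illumina instrument sequenced them. Per the study's methods and processing notes the authors trimmed reads with cutadapt 1.9.1, aligned them to hg38 with HISAT2 2.1.0 and counted them with HTSeq 0.13.5 on Ensembl GRCh38 genes. They deposited FPKM values multiplied by 1000. The Ensembl release and the strand setting are not given in the sources used here. Repeat families were not used.

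Deposited FPKM values were divided by 1000. The 14899 genes that reached 1 FPKM in 2 or more of the 8 libraries were fitted on log2(FPKM + 1) by limma 3.58.1 (R 4.3.3), a mean for each of the 4 groups and variances moderated along a trend, with 2.50 prior and 4 residual degrees of freedom. P-values were adjusted by Benjamini-Hochberg across all genes tested. Reads were recovered from the steps of the FPKM values with GENCODE exon lengths, and between 90.9% and 91.8% of values under 20 reads came out whole within 0.02. For IFIH1 and TRAF3 whole reads needed other lengths, 5094 and 8290 bases. The 1 added before the log leaves changes of genes near or under 1 FPKM understated, and PCR duplicates were not told apart.

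The members and the gene lists were chosen with earlier results of these data known. Named are all members, list genes raised or lowered or needed to account for a list, and the 3 nearest profiles of each receptor. Other genes named with values (IRF3, TLR3, DDX60L, the untested outputs) account for their lists. The fit was tested on simulated data. Alternatives were another pseudocount (0.1), no filter, a mean of at least 5 FPKM, rescaling to TPM, scaling by quantiles or by the upper quartile, a block for the replicate number, 4 libraries alone, variances not moderated, an adjusted p threshold, limma's voom on reads and leaving out each replicate. Voom on genes of at least 10 reads was added after seeing the data.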

Additional observations from a re-analysis of the deposited data

Results flagged for a closer look

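For 8 of the 9 members the effect of DAC differed between DAC-resistant and parental cells by the test of the difference itself, at an adjusted p under 0.05 from limma. The difference on log2(FPKM + 1) was -2.39 for DHX58, -2.26 for IFIH1, -1.11 for IKBKE, -0.90 for TRIM25, -0.70 for DDX58 (from the fit without the filter) and -0.52 for TBK1, and it was 0.67 for RNF135 and 0.37 for MAVS. Over all genes tested 28.4% had a negative and 20.9% a positive difference by this criterion. TRAF3 differed by 0.19 and did not pass. The count of 8 depends on the processing, since the call of RNF135 was lost in 7 of 18 alternatives and TRAF3 passed in 6 of 18.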

How the results depend on the processing

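Each count of members raised or lowered stayed within 1.5 times its value under every alternative in 7 of the 10 cases (5 comparisons, raised or lowered). The other 3 were 0 as reported. Members raised in DAC-resistant against parental cells in DMSO came to 1 (DHX58) under voom on reads with either filter. Members lowered there came to 1 (RNF135) with a pseudocount of 0.1, under upper-quartile scaling and under both voom fits, and to 0 to 1 with single replicates left out. Members raised in DAC-resistant against parental cells with DAC came to 1 (MAVS) with a pseudocount of 0.1, rescaled to TPM and under both voom fits. Of 826 fold changes of single members under alternatives, 30 lost an adjusted p under 0.05, 24 gained it and 1 turned, TBK1 with DAC in DAC-resistant cells (0.0045 rescaled to TPM). The cause was not tested. The replicate numbers did not pair the libraries (correlations of deviations from -0.022 to 0.020). With the replicate block the fold changes were as reported (-2.26 for the difference of IFIH1), 3 members were raised by DAC in parental cells, DHX58 with DAC in DAC-resistant cells was lost, TRAF3 was gained in 2 comparisons, and all-gene calls with DAC in parental cells went from 1387 to 1388.

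Over all genes, quantile normalization moved the median change with DAC in parental cells from 0.06 to -0.05, against which MAVS at -0.57 to -0.43 over the alternatives was still lower. It moved raised and lowered calls from 993 and 394 to 843 and 580 there, from 788 and 1366 to 1019 and 1161 in DAC-resistant against parental cells with DAC, and from 516 and 1067 to 686 and 916 in the difference. Calls ranged from 573 (a mean of at least 5 FPKM) to 4368 (voom on genes of at least 10 reads) with DAC in parental cells, against 1387 reported, from 6 to 165 with DAC in DAC-resistant cells (35), from 517 to 3845 between the lines in DMSO (1300), from 908 to 6150 between them with DAC (2154) and from 721 to 3297 in the difference (1583). DDX58 rests on 28 to 228 reads a library, and its mean FPKM with DAC in parental cells was 8.92-fold higher without parental DMSO replicate 1, against 5.92-fold with all libraries.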
